A study of Mus musculus with 6 samples.

Results

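The genes described here encode complexes II to V of the mitochondrial respiratory chain, together with cytochrome c. They were the 48 of 19938 measured genes whose symbol is Sdha, Sdhb, Sdhc, Sdhd, Cyc1 or Cycs or begins with Uqcr, Cox4 to Cox8 or Atp5. Complex II accounted for 4 genes, complex III for 9, cytochrome c for 1, complex IV for 17 and complex V for 17. RAW264.7, a mouse macrophage-like cell line, was transfected either with a miR-342-3p mimic, a synthetic double-stranded RNA that stands in for the processed microRNA, or with a scrambled mimic called the miR-negative control. Total RNA was taken 18 h later, 150 ng of it was labelled for each Affymetrix whole-transcript mouse gene array, and 3 samples of each group were hybridized, 1 per array. The 6 samples come from 1 cell line and carry no other label of genotype or treatment. The study calls 3 samples per group independent experiments in 1 figure legend only, so the p-values measure the spread between these samples, which may be partly technical. The comparison asks what an excess of miR-342-3p does to the transcripts of macrophages.

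In the respiratory chain, complex II (succinate dehydrogenase) takes electrons from succinate, an intermediate of the citric acid cycle, and passes them to ubiquinone. Complex III (the cytochrome bc1 complex) hands them to cytochrome c and complex IV (cytochrome c oxidase) to oxygen, and both pump protons across the inner membrane, whereas complex II pumps none. Complex V (ATP synthase) lets the protons flow back and makes ATP. Complex II is the 1 complex whose subunits are all encoded in the nucleus, while complexes III, IV and V each also hold subunits encoded by mitochondrial DNA. In macrophages, succinate oxidation at complex II is known as a step at which metabolism and inflammatory activation meet.

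The delivered microRNA is shown because every comparison rests on its excess. In its mature sequence from RefSeq (GRCm38.p6, chr12:108658680-108658702, plus strand), the capitals mark the seed, bases 2 to 8, which pairs with GUGUGAG in a target transcript. Matches to the seed in the transcripts of the respiratory genes were not analysed here.
mmu-miR-342-3p: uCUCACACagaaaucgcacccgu

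Of the 48 genes, 4 were downregulated and 2 were upregulated by the miR-342-3p mimic at a false discovery rate (FDR) under 0.1 in limma, adjusted over all 19938 genes. The downregulated genes were Sdhd, Sdha and Sdhc of complex II and Atp5a1 of complex V. The upregulated genes were Atp5k of complex V and Cox7a2l of complex IV. Among all genes, 7.42% were lower and 4.14% were higher by the same rule (11.6% in either direction), so that the shares of 8.33% and 4.17% among the 48 genes lay close to those of the array as a whole. The balance of directions depended on the scaling. Over all genes there were 1479 lower and 825 higher with the deposited values, 2009 and 376 after each array was centred on its own median, and 1453 and 1414 after a repeated quantile normalization. Among the 48 genes these settings gave 4 lower each, with 2, 1 and 5 higher. The log2 fold changes, taken as miR-342-3p minus control, ranged from -0.53 to 0.73, with a median of -0.03 beside a median of 0.07 over all genes. They were negative in 27 genes and positive in 21, which is 56.3% negative beside 35.5% of all genes. The median of the 48 genes was -0.10 after centring and 0.00 after the quantile step, so no common direction is given for them. The calls were uneven among the complexes, with 3 of 4 genes in complex II, 0 of 9 in complex III, 1 of 17 in complex IV and 2 of 17 in complex V. Whether the complexes differ in their share of calls was not tested.

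**Figure D1:**
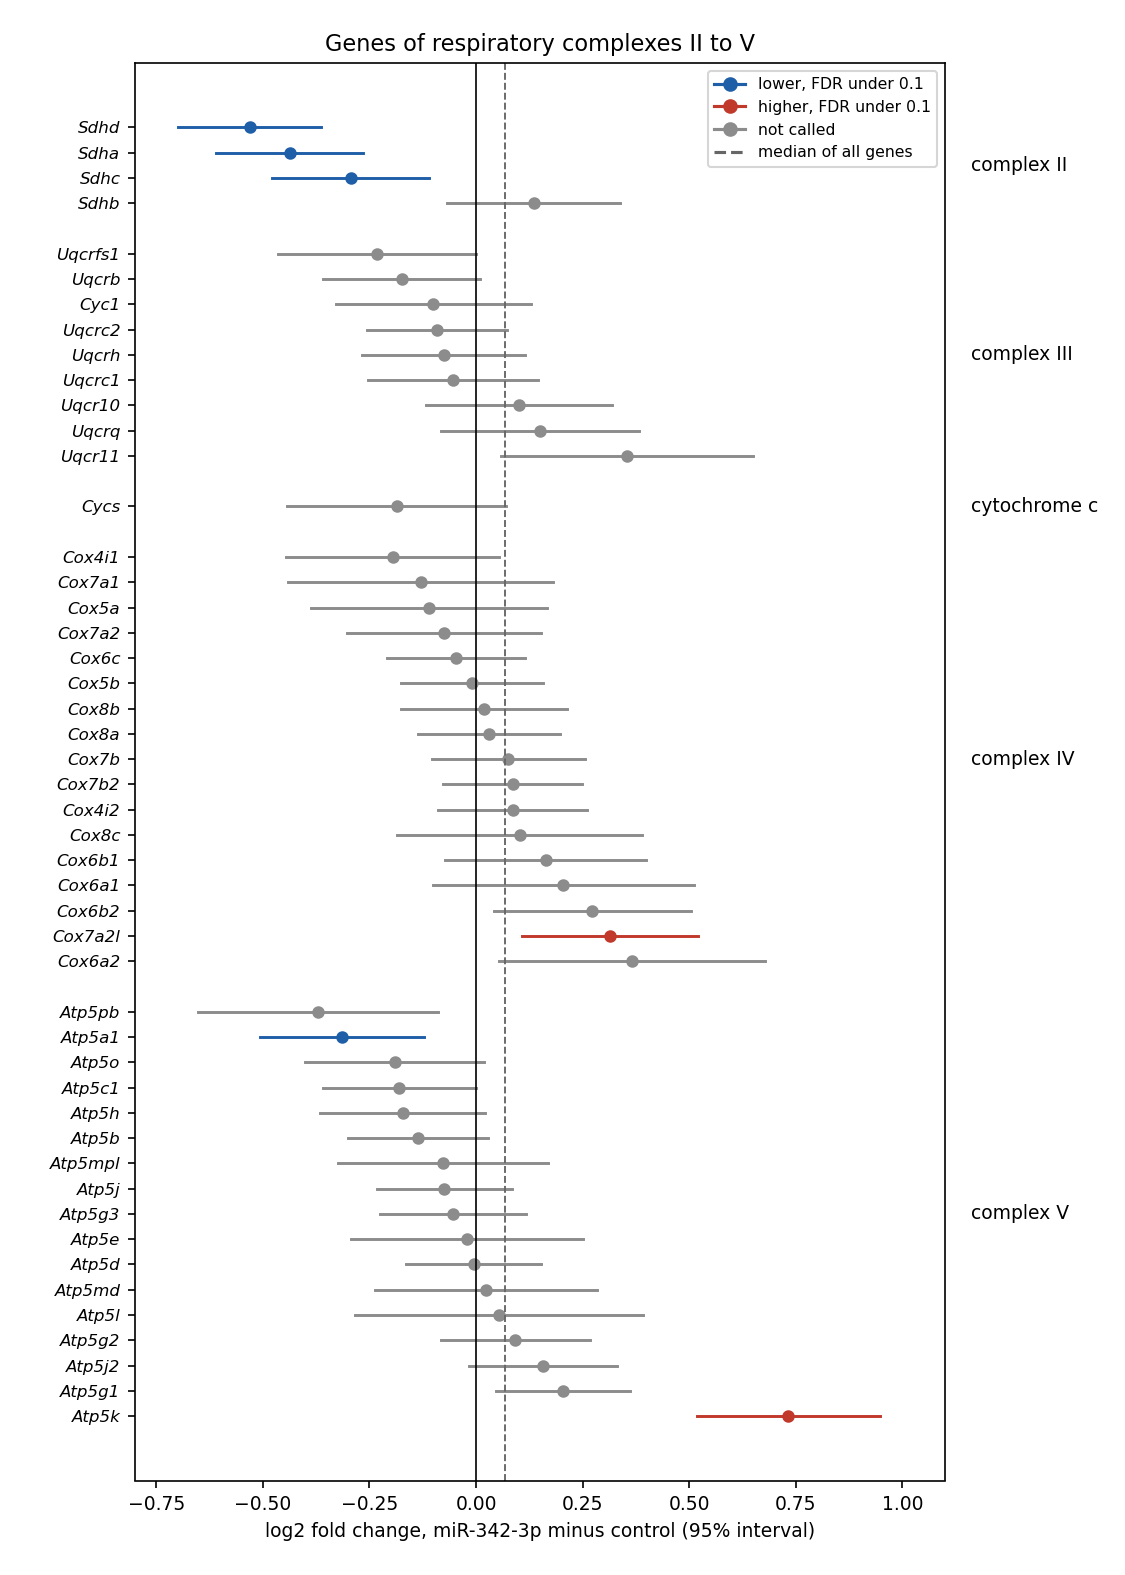
Log2 fold change (miR-342-3p minus control) of the 48 genes, 1 row per gene within its complex, with the 95% interval of limma as a horizontal line. Blue points are lower and red points higher at an FDR under 0.1, grey points are not called, and the dashed line is the median of all genes at 0.07. Sdhd, Sdha and Sdhc lie left of 0 with Sdhb to the right, and Atp5k at 0.73 stands farthest from 0.

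The values are log2 intensities from the robust multi-array average (RMA), so that a difference of 1 is a factor of 2 in signal. In 11 genes (22.9%) every miR-342-3p array lay below every control array, and in 8 genes (16.7%) every miR-342-3p array lay above. Over all genes these shares were 15.5% and 21.4%, together 36.9%. The remaining 29 genes overlapped between the groups. The study itself analysed these arrays with limma and an FDR below 0.1. Its methods name Student's t-test only as the general test between 2 groups. That test, run here on each gene as an alternative, is called the t-test of the methods. At an unadjusted p under 0.05, limma gave 6 lower and 6 higher of the 48 genes, beside 13.0% and 12.5% of all genes. The t-test of the methods gave 7 lower and 5 higher, beside 9.81% and 10.4% of all genes.

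In complex II, 3 of the 4 subunits were downregulated. SDHA is the flavoprotein that oxidizes succinate, SDHB carries the iron-sulfur clusters, and SDHC and SDHD anchor the enzyme in the inner membrane and hold the heme and the ubiquinone site. The median log2 fold change over the 4 genes was -0.37, and the median change from the control mean was -0.38, -0.38 and -0.33 on miR-342-3p replicates 1, 2 and 3.

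Sdhd read 10.91, 10.95 and 10.91 on the miR-342-3p arrays, against 11.50, 11.48 and 11.38 on the control arrays. All miR-342-3p values of this membrane anchor lay well below all control values. It fell by 30.8% in signal, with a log2 fold change of -0.53 ± 0.07 (SE, 3 arrays per group) and an FDR of 0.0124. Sdhd was called in each of 17 alternative settings, which covered other scalings, probe set rules, priors and thresholds and the omission of single arrays. Sdha read 10.13, 10.14 and 10.27 in miR-342-3p-transfected cells and 10.60, 10.66 and 10.59 in control cells. The groups were separate here too, and the flavoprotein transcript fell by 26.1% (log2 fold change -0.44 ± 0.08, FDR 0.021). Sdha was called in 13 of the 17 settings and lost its call when any 1 of the 3 control arrays was left out (highest FDR 0.129).

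Sdhc, the other membrane anchor, read 10.87, 10.87 and 10.83 with miR-342-3p and 11.24, 11.17 and 11.03 with the control. The miR-342-3p arrays lay close together below the more scattered controls, and the transcript fell by 18.4% (log2 fold change -0.29 ± 0.08, FDR 0.0715). Sdhc passed in 10 of the 17 settings, and the call on the Sdhc log2 fold change was lost, among others, without any 1 control array (highest FDR 0.293) and with array weights (FDR 0.123). Its gene model in RefSeq overlaps the span of the predicted gene Gm46172, which was not measured. Strands, exons and probe positions were not compared, and the part of this overlap in the signal of Sdhc was not tested. Sdhb read 10.57, 10.74 and 10.52 with miR-342-3p and 10.58, 10.40 and 10.45 with the control. Its groups overlapped, and its log2 fold change was 0.13 with a 95% interval of -0.07 to 0.34 (FDR 0.346). This interval does not reach the intervals of Sdhd (-0.70 to -0.36), Sdha (-0.61 to -0.26) or Sdhc (-0.48 to -0.11). Sdhb was called in none of the 17 settings.

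**Figure D2:**
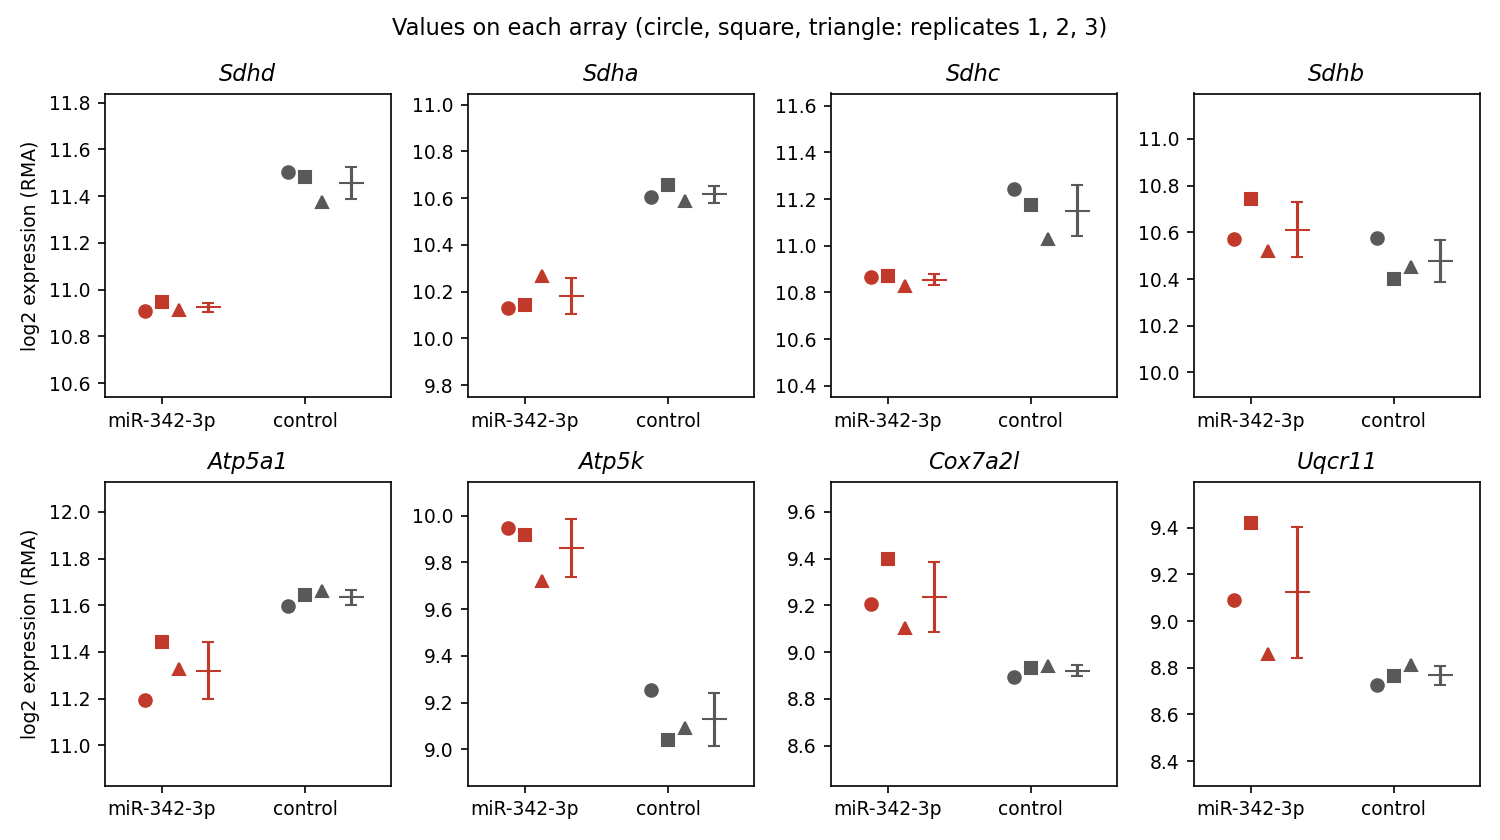
Log2 RMA value on each array for genes described individually, 1 panel per gene, with the miR-342-3p arrays left of the control arrays. Circles, squares and triangles are replicates 1, 2 and 3, the crosses beside them are group means with bars of 1 SD over the 3 arrays, and the vertical axes cover different levels. In Sdhd, Sdha and Sdhc the miR-342-3p points lie below all control points, in Atp5k they lie above them, and in Sdhb the groups overlap.

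The 4 assembly factors of complex II were measured beside its subunits, and 1 fell and 1 rose. Sdhaf2, which inserts the flavin into SDHA, read 8.91, 9.25 and 9.20 with miR-342-3p and 9.45, 9.58 and 9.44 with the control, and its groups were separate (log2 fold change -0.37 ± 0.10, FDR 0.0759). Sdhaf4, a factor that binds flavinylated SDHA, rose by 0.30 ± 0.09 (FDR 0.0916), but with the probe set of the highest mean signal the Sdhaf4 log2 fold change was -0.10 (FDR 0.595). Sdhaf1 (0.04) and Sdhaf3 (0.15) were not called.

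None of the 9 genes of complex III passed an FDR of 0.1 in limma. At an unadjusted p under 0.05 there were 1 lower and 1 higher gene, and the t-test of the methods gave 0 in both directions at that threshold, beside 13.0% lower and 12.5% higher of all genes in limma and 9.81% and 10.4% in the t-test. The log2 fold changes ranged from -0.23 to 0.35 around a median of -0.08. Uqcrfs1, the Rieske iron-sulfur protein, was lowest, with 8.68, 8.93 and 8.65 on the miR-342-3p arrays and 8.97, 9.11 and 8.88 on the control arrays. Replicate 2 of miR-342-3p lay within the control range, and the log2 fold change was -0.23 ± 0.10 (FDR 0.195). Uqcrb, a small subunit near the ubiquinone site, followed with -0.17 and non-overlapping groups (FDR 0.213). Cyc1, the cytochrome c1 subunit that delivers electrons to cytochrome c, stood at -0.10 with an interval of -0.33 to 0.13. The core proteins Uqcrc2 (-0.09) and Uqcrc1 (-0.05) and the hinge protein Uqcrh (-0.08) had differences of that size or less.

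The highest gene of complex III was Uqcr11, a small subunit, at 9.09, 9.42 and 8.86 with miR-342-3p and 8.73, 8.77 and 8.81 with the control. All 3 miR-342-3p arrays lay above the controls, replicate 3 only narrowly, and their SD was 0.28, against 0.04 among the controls. The log2 fold change of 0.35 ± 0.13 was not called (FDR 0.139), and the other probe set of this gene gave 0.33. The small subunits Uqcrq (0.15) and Uqcr10 (0.10) had overlapping groups. Among 7 assembly factors of complex III, 2 were downregulated (28.6%, beside 7.42% of all genes) and the others were not called. Hccs, which attaches heme to cytochromes c and c1, changed by -0.28 (FDR 0.0824), and Lyrm7, which escorts the Rieske protein before its insertion, by -0.26 (FDR 0.0895).

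Cycs, the somatic cytochrome c, carries electrons between complexes III and IV and triggers caspase activation once it leaves mitochondria. The probe set chosen by the largest interquartile range read 6.33, 6.62 and 6.43 with miR-342-3p and 6.83, 6.65 and 6.47 with the control, with overlapping groups and a log2 fold change of -0.19 (interval -0.44 to 0.07). The other 2 probe sets of Cycs, fitted together with every probe set of the array, gave 0.10 (interval -0.10 to 0.31) and 0.15 (interval -0.04 to 0.35). Both were far brighter, with group means of 12.21 and 12.59 with miR-342-3p and 12.10 and 12.44 with the control. The chosen probe set had group means of 6.46 with miR-342-3p and 6.65 with the control, below the array medians of 6.80 to 6.95. The sign of the difference in Cycs therefore depended on the probe set, and none of them was called. Among 4 measured partners of cytochrome c release, Bcl2l1, an anti-apoptotic protein of the outer mitochondrial membrane, was downregulated (-0.60 ± 0.09, FDR 0.0141) and the others were not called.

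Of the 17 genes of complex IV, 1 was upregulated (5.88%) and 0 were downregulated in limma, beside 4.14% and 7.42% of all genes. At an unadjusted p under 0.05, 3 were higher and 0 were lower, and the t-test of the methods gave 2 higher and 0 lower. Over all genes, 12.5% were higher and 13.0% lower in limma and 10.4% higher and 9.81% lower in the t-test. The median log2 fold change was 0.08, with 6 negative (35.3%, beside 35.5% of all genes) and 11 positive genes. None of these 17 genes had all miR-342-3p arrays below the controls, and 4 (23.5%) had them all above. Over all genes these shares were 15.5% and 21.4%.

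Cox7a2l, which links complexes III and IV in supercomplexes, read 9.20, 9.40 and 9.10 on the miR-342-3p arrays and 8.89, 8.93 and 8.94 on the control arrays. The groups were separate and the signal rose by 24.3% (log2 fold change 0.31 ± 0.09, FDR 0.0795). Its other probe set read 7.90, 8.65 and 8.07 with miR-342-3p and 8.21, 8.26 and 8.19 with the control, and gave -0.01 (interval -0.47 to 0.45). With the mean of both probe sets the log2 fold change was 0.15 and the gene was not called. Cox7a2l was called in 8 of the 17 settings, the fewest among the 6 called genes, and the call on the Cox7a2l log2 fold change was also lost after centring of the arrays (FDR 0.18), without replicate 1 of miR-342-3p (FDR 0.113) and without any 1 control array (highest FDR 0.274).

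Several subunits of complex IV come as isoforms, of which one is widespread and another is known from muscle, lung or testis. For COX4, the regulatory subunit that binds ATP, the widespread Cox4i1 stood at -0.20 (interval -0.45 to 0.05) and the lung isoform Cox4i2 at 0.09. For COX6A, Cox6a1 stood at 0.20 and the muscle isoform Cox6a2 at 0.37. Cox6a2 read 8.003, 7.557 and 7.448 with miR-342-3p and 7.214, 7.318 and 7.378 with the control. Replicate 1 of miR-342-3p stood well above the other 5 arrays, and the gene was not called (FDR 0.145). For COX6B, Cox6b1 stood at 0.16 and the testis isoform Cox6b2 at 0.27 (FDR 0.144), again with replicate 1 of miR-342-3p the highest array at 7.18.

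For COX7A, the muscle isoform Cox7a1 stood at -0.13 and the widespread Cox7a2 at -0.08, both with overlapping groups. For COX7B, Cox7b stood at 0.08 and the testis isoform Cox7b2 at 0.09, and for COX8 the values were 0.03 for Cox8a, 0.02 for Cox8b and 0.10 for Cox8c. RMA values carry no detection call, so that it is not known which of the tissue isoforms had signal above background. Cox5a (-0.11) and Cox5b (-0.01), which have no such pairs, and Cox6c (-0.05) overlapped between the groups.

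Among 24 measured genes listed for complex IV assembly and expression, 3 fell (12.5%) and 2 rose (8.33%), beside 7.42% and 4.14% of all genes. Lrpprc, which stabilizes mitochondrial messenger RNAs, had the largest fall of these, with 9.21, 9.23 and 9.58 in miR-342-3p-transfected cells and 9.73, 9.85 and 9.82 in control cells (-0.46 ± 0.11, FDR 0.0487). Higd2a, which takes part in assembling complex IV into supercomplexes, changed by -0.35 (FDR 0.0524) and Cmc2, an assembly factor, by -0.27 (FDR 0.0717). Cox10, which farnesylates the heme of complex IV, read 9.87, 9.87 and 9.68 with miR-342-3p and 9.43, 9.36 and 9.34 with the control, with separate groups (0.43 ± 0.08, FDR 0.0275). Cox11, which supplies copper to the enzyme, rose by 0.28 (FDR 0.0613).

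In complex V, 1 of 17 genes was downregulated and 1 was upregulated (5.88% each, beside 7.42% and 4.14% of all genes). The log2 fold changes spread over a wider range than in complexes III and IV, between -0.37 and 0.73. Of the 17 genes, 11 were negative (64.7%, beside 35.5% of all genes) and 6 positive, with a median of -0.05. In 6 of them (35.3%) the miR-342-3p arrays lay all below the controls and in 3 (17.6%) all above. The shares over all genes were 15.5% and 21.4%.

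Among the subunits of the catalytic head (F1) and the stalks, 1 gene was called. Atp5a1, the alpha subunit of the head, read 11.19, 11.44 and 11.33 with miR-342-3p and 11.60, 11.65 and 11.66 with the control. The groups were separate and the signal fell by 19.6% (log2 fold change -0.31 ± 0.08, FDR 0.068). Atp5a1 was called in 11 of the 17 settings. The call on the Atp5a1 log2 fold change was lost, among others, with the replicate block (FDR 0.111) and without any 1 control array (highest FDR over all settings 0.247). Its gene model overlaps Haus1, which was itself downregulated (-0.71, FDR 0.0194), and the part of this overlap in the signal of Atp5a1 was not tested. Atp5b, the catalytic beta subunit, had separate groups but a small change (-0.14, interval -0.30 to 0.03). The gamma subunit Atp5c1, the rotating shaft, stood at -0.18 with separate groups, while delta (Atp5d, -0.01) and epsilon (Atp5e, -0.02) overlapped and had positive values after the repeated quantile normalization.

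Atp5pb, subunit b of the peripheral stalk, had the lowest log2 fold change of complex V and was not called. It read 10.75, 11.17 and 11.23 with miR-342-3p and 11.40, 11.41 and 11.46 with the control, with replicate 1 far below the others of its group (-0.37 ± 0.12, FDR 0.116). Its other probe set gave -0.17. Of the other stalk subunits, Atp5o (the oligomycin sensitivity protein) stood at -0.19, Atp5h (subunit d) at -0.17 and Atp5j (F6) at -0.07, each with an interval that holds 0.

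Atp5k, subunit e of the membrane part, which helps ATP synthase to form dimers, had the largest change among the 48 genes. It read 9.95, 9.92 and 9.72 on the miR-342-3p arrays and 9.25, 9.04 and 9.09 on the control arrays, so that the lowest miR-342-3p array lay above the highest control. The signal rose by 66.1% (log2 fold change 0.73 ± 0.09, interval 0.52 to 0.95, FDR 0.0103). The call held in 16 of the 17 settings, and the exception was the t-test of the methods with adjustment over all genes. Atp5l, subunit g, which acts together with subunit e in dimers, stood at 0.05 (interval -0.28 to 0.39), and its 5 other probe sets gave 0.03 to 0.11.

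None of the remaining membrane subunits was called. The c subunit of the rotor ring is encoded by 3 genes for the same mature protein. Of these Atp5g1 read 12.52, 12.51 and 12.48 with miR-342-3p and 12.31, 12.28 and 12.30 with the control, a narrow separation without overlap (0.20 ± 0.07, FDR 0.119), and its other probe set gave 0.20. Atp5g2 stood at 0.09 and Atp5g3 at -0.05, both with overlapping groups. Subunit f (Atp5j2) stood at 0.16 with separate groups (FDR 0.229), and the small proteins Atp5md (0.02) and Atp5mpl (-0.08) overlapped. Of 5 measured assembly factors and the inhibitor of complex V, 0 were called in limma, and 0 had an unadjusted p under 0.05 in limma or in the t-test of the methods. Atpif1, the inhibitor of ATP hydrolysis, stood at 0.03.

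**Figure D3:**
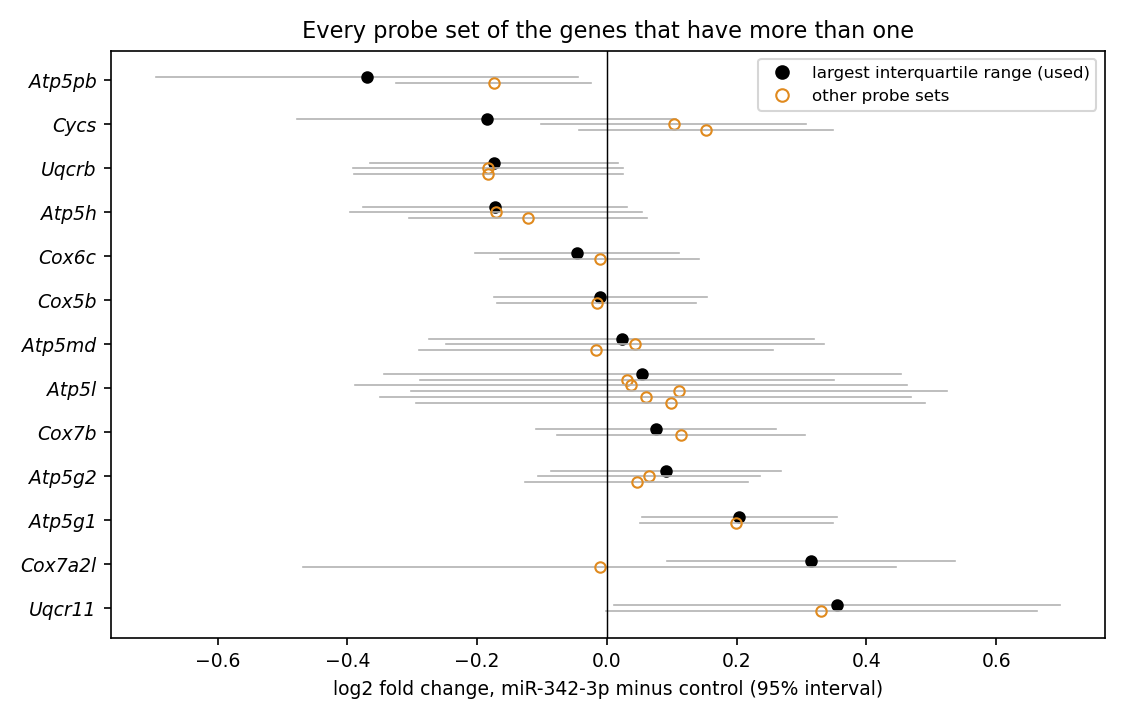
Log2 fold change (miR-342-3p minus control) of every probe set of the 13 genes that have more than 1, fitted with all 35556 probe sets of the array. Filled points are the probe sets used in the report, open points the others, and lines are 95% intervals. Points of a gene lie close together for most genes. They differ in sign in Cox7a2l (0.31 and -0.01), Cycs (-0.19, 0.10 and 0.15) and, by small amounts, Atp5md (0.02, 0.04 and -0.02).

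Outside complexes II to V, the same fit was read for 9 lists of related genes, with complex I and the partners of cytochrome c release among them. Over their 109 measured genes, 15 were downregulated (13.8%) and 4 upregulated (3.67%), with a median log2 fold change of -0.08, beside 7.42% and 4.14% of all genes. The carriers that move ADP, ATP and phosphate across the mitochondrial membranes had 4 of 6 genes downregulated. The translocases Slc25a4 and Slc25a5, which exchange ADP for ATP, changed by -0.37 (FDR 0.0365) and -0.30 (FDR 0.0638), and the outer membrane channels Vdac2 and Vdac1 by -0.33 (FDR 0.0425) and -0.27 (FDR 0.0972). Vdac3 stood at -0.26 without a call, and the phosphate carrier Slc25a3 was at 0.00.

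Complex I, which passes electrons from NADH to ubiquinone, was read from 34 genes chosen by symbol, with Ndufa4l2, a relative of Ndufa4, among them. Of these 34, 3 were downregulated (8.82%, beside 7.42% of all genes), with no other call in limma and a median of -0.07. At an unadjusted p under 0.05, 9 were lower and 3 higher in limma (13.0% and 12.5% of all genes), and the t-test of the methods gave 9 lower and 0 higher (9.81% and 10.4% of all genes). Ndufb6 (-0.62, FDR 0.0163) and Ndufa9 (-0.58, FDR 0.0142) are accessory subunits, and Ndufs1 (-0.56, FDR 0.0255) is the iron-sulfur subunit at the entry of the electrons. Among 14 measured regulators of mitochondrial biogenesis, 1 was downregulated and 1 upregulated (7.14% each), beside 7.42% and 4.14% of all genes. Nrf1, a transcription factor of nuclear respiratory genes, changed by -0.38 (FDR 0.0366). Polrmt, the mitochondrial RNA polymerase, changed by 0.27 (FDR 0.0902). Of 11 genes of ubiquinone synthesis, 0 were called in limma. At an unadjusted p under 0.05, 1 was lower in limma, and the t-test of the methods gave 2 lower and 1 higher, beside all-gene shares of 13.0% lower in limma and of 9.81% lower and 10.4% higher in the t-test.

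The 3 miR-342-3p arrays did not stand alike, either over all genes or for the respiratory genes. Over all genes, replicate 3 of miR-342-3p correlated with the control arrays at r of 0.9958 to 0.9961. With replicates 1 and 2 of its own group r was 0.9926 and 0.9917. The array weights of limma were 0.235, 0.354 and 0.925 for miR-342-3p replicates 1, 2 and 3, and 1.692 to 3.363 for the controls. The median change of the 48 genes from the control mean was -0.10, 0.09 and -0.05 on miR-342-3p replicates 1, 2 and 3, while over all genes it was 0.11, 0.04 and 0.03. Replicate 2 was the highest of the 3 in 31 of the 48 genes (64.6%), beside 31.9% of all genes, and replicate 1 in 9 of them (18.8%), beside 45.7%. In complex II the 3 medians lay within 0.05 of each other, whereas in complexes III, IV and V replicate 2 stood above the others. Without replicate 2 of miR-342-3p, 7 genes were called lower and 2 higher, the added ones being Atp5o, Cox4i1 and Uqcrfs1. Without replicate 3, 5 were lower and 6 higher. Over all genes the counts also changed with these omissions, to 1830 lower and 1171 higher without replicate 2, and to 2422 lower and 2104 higher without replicate 3.

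**Figure D4:**
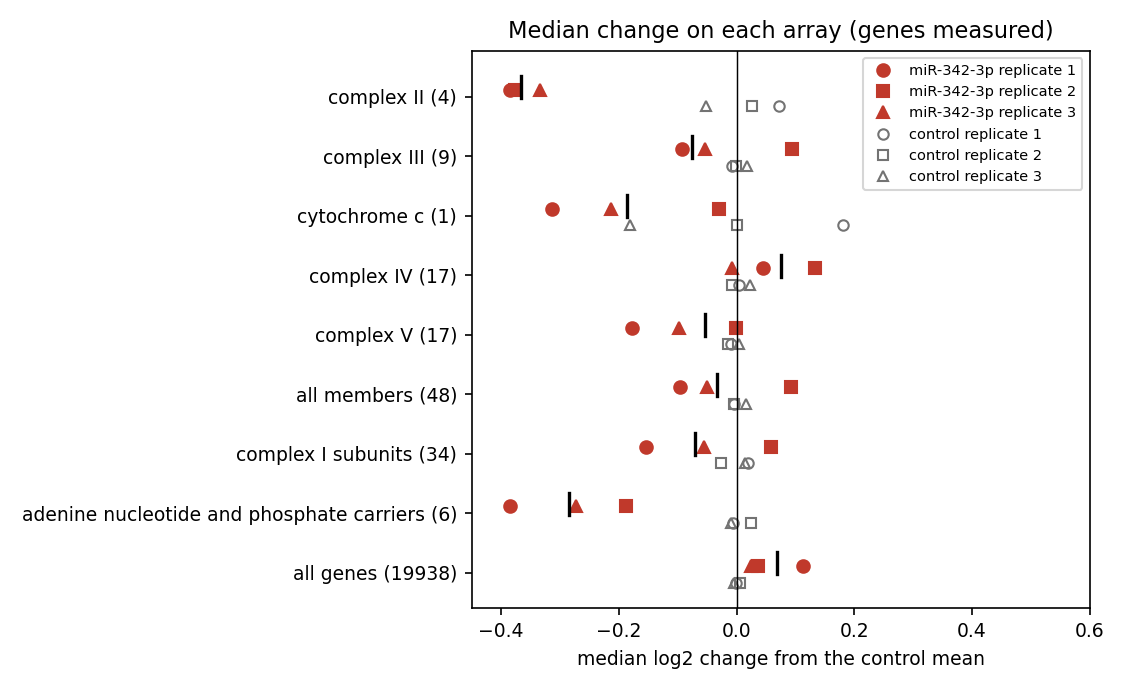
Median log2 change from the control mean on each array, for each complex, the 48 genes together, complex I, the carriers and all genes, with the number of genes in brackets. Filled symbols are miR-342-3p arrays, open symbols are control arrays, and the vertical tick is the median log2 fold change. The miR-342-3p arrays agree within 0.05 for complex II, and replicate 2 lies to the right of the others in complexes III to V.

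The labelled cell type was checked against 10 macrophage markers, whose mean log2 value lay between 10.08 and 10.25 on the miR-342-3p arrays and between 10.25 and 10.27 on the control arrays, with 2 of the 10 lower and 1 higher. The mean of 6 fibroblast markers was 6.69 to 6.97 with miR-342-3p and 6.56 to 6.60 with the control, and that of 6 lymphocyte markers 5.46 to 5.85 with miR-342-3p and 5.44 to 5.54 with the control. RMA values carry no detection call, so these means do not tell whether a marker was expressed. Pdgfra was called higher among the fibroblast markers. Of the miR-342-3p arrays, replicate 1 was highest in 6 of 6 genes of each of these lists, beside 45.7% of all genes. That array also had the highest median over all its probe sets, 6.95, with 6.80 and 6.88 on replicates 2 and 3. The part of these markers in the results was not tested. In total RNA from whole cultures, fewer cells of a type and less RNA per cell cannot be told apart.

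Promoter sequences are shown for the 3 called genes, of 6, whose windows carried the same motif. NRF-1, a factor known for binding nuclear respiratory genes, prefers GCGCA and GCGC with 1 further base of any kind between them. RefSeq promoter windows of 300 bases (GRCm38.p6, 250 bases before to 50 after the gene start) were found for 36 of the 48 genes and searched on both strands. These genes had 39 windows, of which 10, from 10 genes, held the motif (25.6%), beside 4.6% of all 32851 windows. It was found in Sdhd and Sdha, which were lower, in Atp5k, which was higher, and in 7 genes that were not called. The window of Cox7a2l did not hold it, and Sdhc and Atp5a1 were not among the 36 genes. Sdha held 3 matches, of which 1 is shown. The capitals mark the motif in the following runs, from chr9:50603909-50603938, chr13:74350276-74350305 and chr5:108434430-108434459, all on the minus strand.
Sdhd: tcgctggggtGCGCACGCGCggtggcagcg
Sdha: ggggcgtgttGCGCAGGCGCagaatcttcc
Atp5k: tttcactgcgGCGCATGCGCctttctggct

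The core letters preferred by ETS factors such as NRF-2, CCGGAAG, were present in 13 of the 39 windows (33.3%), from 13 genes, beside 8.86% of all windows. Sdhd, Atp5k and 11 genes that were not called, Sdhb among them, had them. The run of Sdhd holds the letters on its opposite strand, at chr9:50603877-50603906, next to the run above and not overlapping it. The letters ATGGCGGC, preferred by YY1, was found in 0 of the 39 windows and in 2.24% of all windows. These matches describe letters in a window and not binding.
Sdhd: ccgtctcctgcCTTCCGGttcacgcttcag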

How the data were processed

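The authors processed the scans with RMA (background adjustment, quantile normalization, summarization) using the R packages affy and mogene10stv1cdf, whose versions are not given in the sources used here, and deposited log2 values of 35556 probe sets on 6 arrays. The array medians differed by at most 0.151. Of these probe sets, the platform annotation gave 21789 a single gene, 1621 several and 12146 none, and no genome build is named for the files. A gene was represented by its probe set with the largest interquartile range. This left 19938 genes, and no filter on level was applied. All 48 symbols matched the RefSeq table of GRCm38.p6, and 13 of the genes had several probe sets. A further 3 probe sets listing both Gm12338 and Cox7c were left out.

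Groups and replicate numbers came from the sample labels. limma version 3.58.1 in R version 4.3.3 (lmFit, eBayes) was fitted to all 6 arrays, two-sided, with Benjamini and Hochberg adjustment over all genes and calls at an FDR under 0.1. Its prior had 4.79 degrees of freedom beside 4 residual ones. Errors are standard errors of the fit and intervals cover 95%. The steps were tested on simulated data. Precision is set by the 3 arrays per group, since arrays have no read depth. Plots were made in Python version 3.11.15 (matplotlib version 3.10.9).

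The 48 genes and the other lists were chosen with earlier results of these data known. The rule for genes named in the text takes every called gene, complex II, Cyc1, Cycs, the 3 lowest and 3 highest genes of complexes III, IV and V, all isoforms and every called gene of the other lists. Further members are named to account for all 48. Each array was left out once, and other settings were a block for the replicate number, other probe set rules and scalings, a level filter, another prior, array weights, a stricter FDR and the methods' t-test, with the fit of every probe set added after the data were seen.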

Additional observations from a re-analysis of the deposited data

How the results depend on the processing

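Leaving out 1 array at a time gave 1 to 7 lower and 1 to 6 higher genes, against 4 and 2 with all arrays, and without any 1 control array only Sdhd and Atp5k were called. Over all genes, those 3 fits called 102 to 140 lower and 88 to 100 higher. By complex, the ranges were 1 to 3 lower in complex II, 0 to 1 lower and 0 to 1 higher in complex III, 0 to 1 lower and 0 to 3 higher in complex IV, and 0 to 2 lower and 1 to 2 higher in complex V. The other pathway genes ranged over 3 to 29 lower and 0 to 10 higher, beside 15 and 4.

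Same-numbered arrays of the 2 groups did not deviate together (r of -0.308, -0.163 and -0.106), so the numbers were not treated as pairs. With the replicate block, 3 of the 48 genes were lower (Sdhd, Sdha and Atp5pb) and 1 higher (1445 lower and 550 higher over all genes). The block gave 0 higher in complex IV and 1 higher among the other pathway genes. With the mean of all probe sets, 1 gene was higher and 0 in complex IV (1439 lower and 810 higher over all genes). With centred arrays, 1 was higher, 0 in complex IV and 1 among the other pathway genes. The repeated quantile normalization gave 5 higher, with 1 in complex III, 3 in complex V and 8 among the other pathway genes. The filter on level left 44 of the 48 genes, with 4 higher (1 in complex III and 2 in complex V), 2 lower in complex V and 23 lower among the other pathway genes (1952 lower and 1086 higher of the 9969 genes kept). The trend and robust prior gave 7 lower, with 4 lower and 2 higher in complex V (1763 lower and 972 higher over all genes). The methods' t-test at an unadjusted p under 0.05 gave 7 lower and 5 higher, with 2 higher in complex IV, 4 lower and 3 higher in complex V, and 27 lower and 7 higher among the other pathway genes (1955 lower and 2080 higher over all genes). With adjustment it gave 1 lower (Sdhd) and 1 higher (Atp5g1), with 1 lower in complex II, 0 higher in complex IV, 0 lower in complex V and 0 in either direction among the other pathway genes (22 and 26 over all genes). An FDR under 0.05 in limma gave 2 lower and 1 higher, with 0 higher in complex IV, 0 lower in complex V, and 8 lower and 1 higher among the other pathway genes (661 and 312 over all genes). Fitting every probe set, an alternative chosen after seeing the data, gave 2 lower and 1 higher (535 and 259 of all probe sets). The Sdhaf4 log2 fold change turned to -0.10 (FDR 0.595) with the probe set of the highest mean. The cause of these differences was not tested.

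With 3 arrays per group and no detection calls, dim probe sets limit what can be said of tissue isoforms.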

Other observations

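Cox7c, a small subunit of complex IV, is measured only by probe sets that also list the predicted gene Gm12338 and was therefore not counted among the 48 genes. The 3 such probe sets gave log2 fold changes of 0.01, 0.02 and 0.03 in the fit of every probe set (FDR 0.956, 0.918 and 0.858). The 2 genes of mitochondrial DNA looked up after the data were seen, COX2 of complex IV and ND3 of complex I, stood at 0.00 (interval -0.20 to 0.20) and 0.01 (interval -0.23 to 0.26).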
